A study of Homo sapiens with 11 samples.

Results

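In HCC78 cells, 9 genes that had been reported elsewhere as splicing targets of U2AF1 S34F were followed: H2AFY, BCOR, STRAP, FMR1, PICALM, GNAS, CTNNB1, CASP8 and CHCHD7. They were found by gene symbol, as 9 of the 57773 genes in the expression table and as 100 of the 92662 unique splicing events in 5 tables of events. Of the 100 events, 99 had at least 10 reads over both conditions and were used. U2AF1 is the small subunit of the U2AF heterodimer, which recognises the end of an intron at the 3′ splice site, and S34F lies in a zinc finger that contacts the RNA around the terminal AG. The S34F change is recurrent in lung adenocarcinoma and in myeloid neoplasms, where it alters the choice of cassette exons and of competing 3′ splice sites.

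HCC78 is a lung adenocarcinoma line with a SLC34A2-ROS1 fusion that itself carries U2AF1 S34F, so every library, controls included, holds the endogenous mutant. Transduced cells carried a doxycycline-inducible lentiviral construct for tagged wild-type (WT) or S34F U2AF1, as stable subclones, so a difference between the lines cannot be told apart from one between subclones. The RNA-seq groups were WT dox+ (2 libraries), S34F dox+ (2), WT dox- (2), S34F dox- (1) and parental cells (2), which the sample labels give as dox- and a supplementary table of the study heads as Dox+. By the labels, S34F made up 12% and 14% of U2AF1 mRNA in WT dox+, 62% and 65% in S34F dox+ and 28% to 33% elsewhere, so the mutant was present in WT dox+ too. U2AF1 stood at 278 and 299 FPKM (fragments scaled to transcript length and to library size) in WT dox+, at 164 and 223 in S34F dox+ and between 103 and 115 in the other 5 libraries. The 6 epithelial markers averaged 89.8 to 3670 FPKM, and their summed level was 8420 to 11400 in a library. Of the fusion genes, SLC34A2 stood at 115 and 166 in the parental libraries and at 40.1 to 70.5 in the transduced ones. ROS1 stood at 26.1 and 37.8 in the parental libraries and at 8.63 to 17.1 in the transduced ones. Of 5 blood cell markers, 2 averaged 1 FPKM or more, CD68 at 22.2 and PTPRC at 1.1, HBB was at 0 in all libraries, and the summed level of the list was 14.9 to 36.4. Of 4 fibroblast and endothelial markers found, 1 averaged 1 FPKM or more, COL1A1 at 4.29, with a summed level of 3.3 to 8.64. Depth estimated relative to the first parental library ran from 0.603 to 1.26, and S34F dox+ had the lowest values, 0.702 and 0.603. No counts were available, so these values are estimates only. S34F dox+ replicate 2 had 20896 genes at 1 FPKM or more, where the other libraries had 13661 to 17716. It also had the fewest genes at 0, 23173. Pearson's r between replicates was lowest in S34F dox+, 0.942, and 0.959 to 0.965 in the other groups with replicates. The labels do not say that replicates were separate cultures, so p-values measure only the spread between these libraries.

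Splicing was compared between S34F and wild-type cells as percent spliced in (PSI), the fraction of transcripts with 1 of the alternative forms. The deposited MISO tables hold 1 PSI per condition, with no values per replicate, so differences carry no test. Beside each difference stands the Bayes factor of the authors' MISO comparison, which weighs a difference against none and stands in parentheses after the PSI values. An event counted as changed where the difference reached 0.10 and the Bayes factor reached 5. In alternative 5′, alternative 3′ and NAGNAG events (acceptors 3 bases apart), PSI counts the second-named site, as 97.6% to 98.9% of events that could be checked showed. In skipped exon events it counts inclusion. Positions are in GRCh37 as the tables give them, and each pair gives the ends of the spliced junction.

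None of the 99 events of the 9 genes was changed by these thresholds, where 1.18% of the 87763 events of all genes were. With 99 events, a count of 0 is close to that share and does not set the 9 genes apart from all genes. A difference of at least 0.10 was present in 23 events, or 23.2%, against 32.9% of all events, and 14 of the 23 were lower in S34F and 9 higher. The median absolute difference was 0.03 for the 9 genes and 0.05 for all events. These genes were more deeply covered than most, with a median of 1765 and 2538 reads an event in S34F and wild-type, against 223 and 320 for all events. Among events with 1000 or more reads on both sides, 5 of 57 of these genes differed by at least 0.10, or 8.77%, against 11.1% of all. From 400 to 1000 reads the share was 34.4% of 32 events, against 21.6% of all. The share of the 9 genes was thus below that of all events in the deepest class and above it in the class beneath. In that class CASP8 alone gave 7 of the 11 events with such a difference, and several of its events share a junction. With 100 to 400 reads 3 of 5 events differed so, and with 10 to 100 reads 1 of 2.

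**Figure D1:**
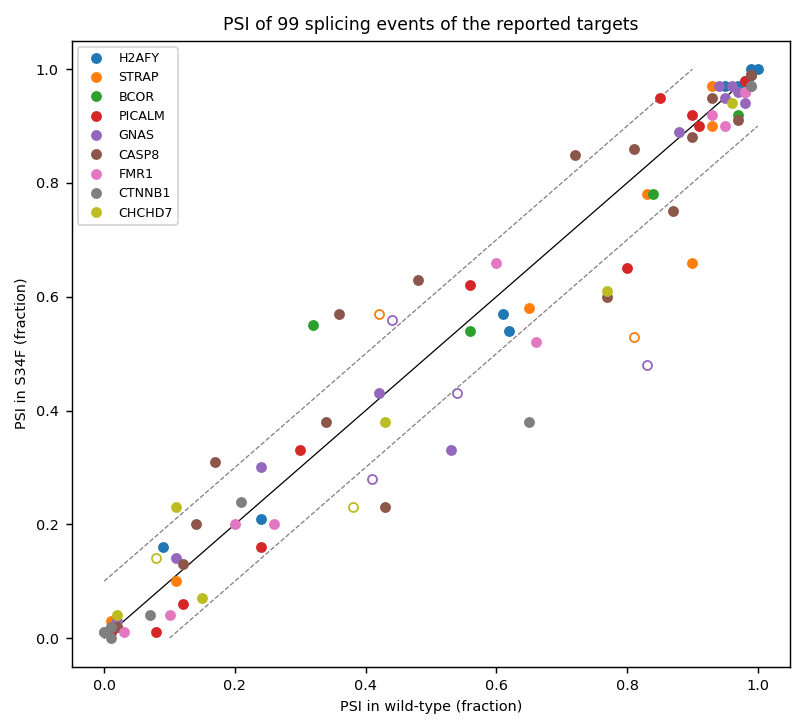
PSI in S34F (vertical) against PSI in wild-type (horizontal) for 99 events, coloured by gene, with filled circles where both conditions had 400 or more reads and open circles for the rest. The solid line marks equal PSI and the dashed lines a difference of 0.10, and 23 events lie on or beyond them.

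A Bayes factor of at least 5 was reached by 1 event, an exon of PICALM, where 1.3% of all events reached it. With a lower bar for the Bayes factor, 1, beside the difference of 0.10, 9 events passed, against 15.2% of all events. The other 98 events had Bayes factors from 0 to 2.6.

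**Figure D2:**
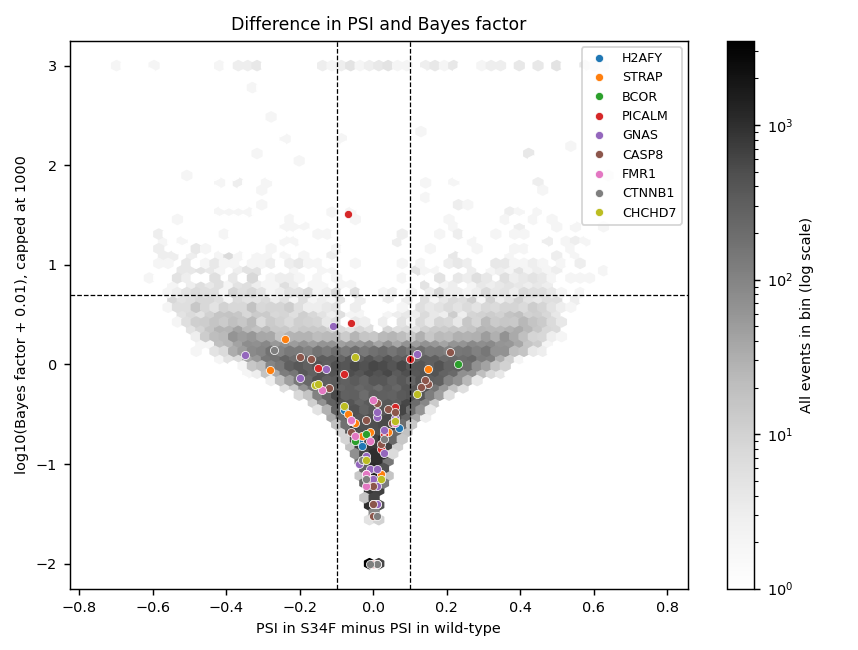
Difference in PSI, S34F minus wild-type (horizontal), against log10 of the Bayes factor plus 0.01, capped at 1000 (vertical), with all events as grey bins and the 99 events of the 9 genes as coloured points. No coloured point lies outside the vertical dashed lines (0.10) and above the horizontal one (5), and the highest is the PICALM exon at -0.07 and 32.24.

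PICALM, a clathrin adaptor of endocytosis, had 12 events with 1725 to 4673 reads in S34F and 2237 to 6051 in wild-type. Its exon reached by the junction chr11:85701421-85707869 on the minus strand was mostly skipped and was less included in S34F. PSI was 0.01 with S34F and 0.08 with wild-type, at a Bayes factor of 32.24 from 4461 and 5750 reads. An acceptor 21 bases away serves the same exon. Used from that acceptor, at chr11:85701442-85707869, the exon also had the lower PSI in S34F, 0.06 against 0.12, at a Bayes factor of 2.6. In the choice between both acceptors the second-named one was at 0.62 with S34F and 0.56 with wild-type (Bayes factor 0.36). These 3 events share reads and are not independent. Of 3059 skipped exons of all genes with a PSI of at most 0.10 in wild-type and no fewer than 1000 reads on either side, 28, or 0.915%, had a Bayes factor of 5 or more. Over all event types, 105 events combined such a Bayes factor with a difference under 0.10, and 50 of them had one at least as large as that of the PICALM exon, itself counted.

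Larger differences in PICALM came with smaller Bayes factors. The exon at chr11:85779775-85780762 had a PSI of 0.65 with S34F and 0.80 with wild-type (0.91). The exon at chr11:85687725-85692172 went the other way, with 0.95 with S34F and 0.85 with wild-type (1.13). The remaining 7 events differed by 0.08 or less.

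**Figure D3:**
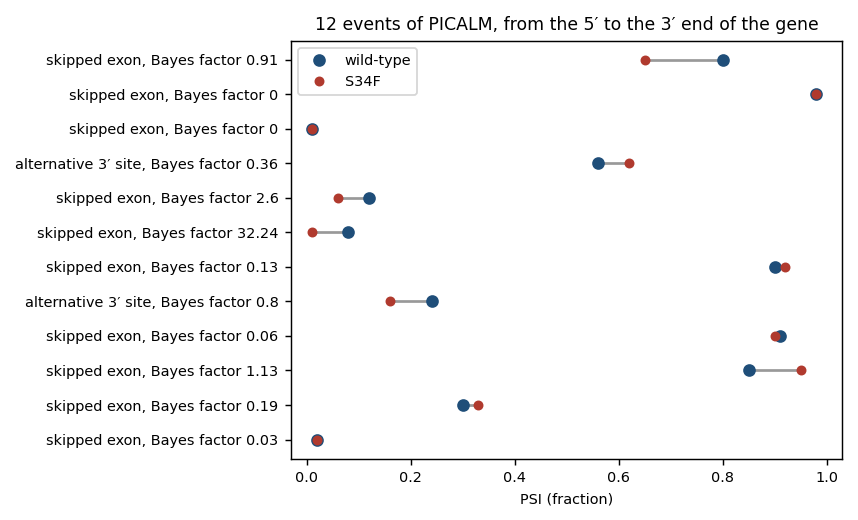
PSI (horizontal) of the 12 PICALM events in wild-type (blue) and S34F (red), in order along the gene, each with its Bayes factor. The exon with the Bayes factor of 32.24 lies near 0 in both conditions, and the widest line, from 0.80 to 0.65, belongs to an event with a Bayes factor of 0.91.

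H2AFY and BCOR act on chromatin. H2AFY encodes the histone variant macroH2A1, whose pair of mutually exclusive exons gives isoforms that differ in their macro domain. All 12 of its events differed by 0.08 or less, with 2742 to 3483 reads in S34F and 3968 to 5044 in wild-type, and none had a Bayes factor above 0.34. The largest difference was in a skipped exon event, the exon at chr5:134688735-134696187 set against skipping by the junction chr5:134686603-134696187. Its PSI was 0.54 with S34F and 0.62 with wild-type (0.34). Set against skipping by chr5:134681747-134696187, the same exon had 0.99 in both conditions. The exon at chr5:134686603-134696187, set against skipping, had 0.21 and 0.24 (0.14). Of the 12 events, 4 also carry the symbol C5orf66. BCOR, a corepressor of BCL6 and a subunit of a Polycomb complex, had 4 events. Its alternative 5′ site at chrX:39909244-39911472 had a PSI of 0.55 with S34F and 0.32 with wild-type at a Bayes factor of 0.99, from 414 and 590 reads. Its cassette exon at chrX:39930943-39931602 had 0.54 and 0.56 (0.19).

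STRAP and FMR1 bind RNA or its machinery. STRAP, a WD40 protein of the SMN complex that assembles snRNPs, had 10 events, and 3 differed by at least 0.10. At the alternative 5′ sites of chr12:16047081-16048293 and chr12:16047077-16048293, 4 bases apart, the second had a PSI of 0.66 with S34F and 0.90 with wild-type, at a Bayes factor of 1.79 from 476 and 770 reads. At the NAGNAG acceptors of chr12:16035753-16036017 and chr12:16035753-16036020, the second had 0.53 and 0.81, from 277 and 488 reads (0.87). A further NAGNAG acceptor, chr12:16052987-16055854, had 0.57 and 0.42 (0.88), from 115 and 139 reads. The acceptor pairs thus differed in opposite directions. The cassette exon at chr12:16035753-16036475 had 0.58 with S34F and 0.65 with wild-type (0.31). FMR1, which encodes the translational repressor FMRP, had 11 events, and 1 reached 0.10. Its exon at chrX:147007151-147009840 had 0.52 with S34F and 0.66 with wild-type (0.54), from 2040 and 2989 reads. Its mostly skipped exon at chrX:147019119-147019618 had 0.04 and 0.10 (0.27). One FMR1 event lies on the opposite strand.

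GNAS and CTNNB1 act in signalling. GNAS encodes the stimulatory G protein alpha subunit, whose long and short forms differ by a cassette exon. That exon, at chr20:57470739-57473996, had a PSI of 0.43 with S34F and 0.42 with wild-type against the acceptor at 57478586, at a Bayes factor of 0.32 from 1770 and 2543 reads. Against the acceptor at 57478583, 3 bases upstream, it had 0.14 and 0.11, at a Bayes factor of 0.21 from 1764 and 2534 reads. Of the 17 GNAS events, 5 differed by at least 0.10, and 4 of these rested on 3 to 11 reads in S34F and 8 to 20 in wild-type. The exception was an alternative 5′ site event with 3 isoforms, in which 1 isoform had 0.33 with S34F and 0.53 with wild-type (0.72) from 2234 and 3290 reads. The 4 thinly covered exons, S34F first, had 0.28 and 0.41 (0.88), 0.43 and 0.54 (2.42), 0.48 and 0.83 (1.22), and 0.56 and 0.44 (1.27). The 2.42 is the largest Bayes factor of the gene and rests on 3 and 8 reads. Of these, 2 lie on the opposite strand and carry the symbols GNAS-AS1 and RP1-309F20.3 too. CTNNB1, which encodes β-catenin, had 7 events. Its NAGNAG pair at chr3:41236432-41237119 and chr3:41236432-41237122 had a PSI of the second acceptor of 0.38 with S34F and 0.65 with wild-type, at a Bayes factor of 1.4 from 1619 and 2788 reads. The other 6 differed by 0.03 or less.

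CASP8, the initiator caspase of death receptors, had the most events with a difference of at least 0.10, 7 of 18. They were split in direction, 4 higher and 3 lower in S34F. Its reads an event ran from 208 to 483 in S34F and from 393 to 876 in wild-type. The acceptor at chr2:202098835-202131210, set against one 26 bases upstream, had a PSI of 0.23 with S34F and 0.43 with wild-type (1.19). From another donor, at chr2:202123105-202131210, the same acceptors gave 0.13 and 0.12 (0.4). A NAGNAG acceptor at chr2:202098277-202098742 had 0.57 and 0.36 (1.32), and from a donor 68 bases away it had 0.31 and 0.17 (0.68). Here both donors gave the higher value in S34F, but these events share their acceptors and are not independent. Of the other 4 events, the site at chr2:202141691-202149539 had 0.60 and 0.77 (1.12), the site at chr2:202098277-202098739 had 0.63 and 0.48 (0.62) and the exon at chr2:202137499-202139612 had 0.75 and 0.87 (0.57). The exon at chr2:202137499-202141550 had 0.85 and 0.72 (0.58).

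CHCHD7, a small protein with a CHCH domain, had 8 usable events of 9. In 3 the difference was at least 0.10, on 208 to 479 reads in S34F. An alternative 3′ site had a PSI of 0.61 with S34F and 0.77 with wild-type (0.61), an alternative 5′ site had 0.23 and 0.11 (0.5), and 1 isoform of a 3-isoform 5′ site event had 0.23 and 0.38 (0.63). The largest Bayes factor of the gene, 1.17, belonged to a pair of 5′ sites 4 bases apart with a PSI of 0.38 and 0.43, from 429 and 712 reads.

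Expression was compared next, on log2(FPKM + 1) with limma over 15179 genes and Benjamini-Hochberg adjustment. RNA-seq of bulk cells cannot tell fewer expressing cells from less RNA per cell. The ratio of the highest to the lowest of the 9 libraries ran from 1.22 for FMR1 to 1.5 for BCOR, against 2.91 for U2AF1. None of the 9 passed an adjusted p of 0.05 between S34F dox+ and WT dox+, where 0.0198% of all genes were called higher and 0.0329% lower. None had an unadjusted p under 0.05 either, where 4.01% of all genes were higher and 2.77% lower by that measure, and with TPM in place of FPKM 2 of the 9 did. The log2 fold changes ran from -0.29 to 0.08, with a median of -0.07 against 0.03 for all genes tested.

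**Figure D4:**
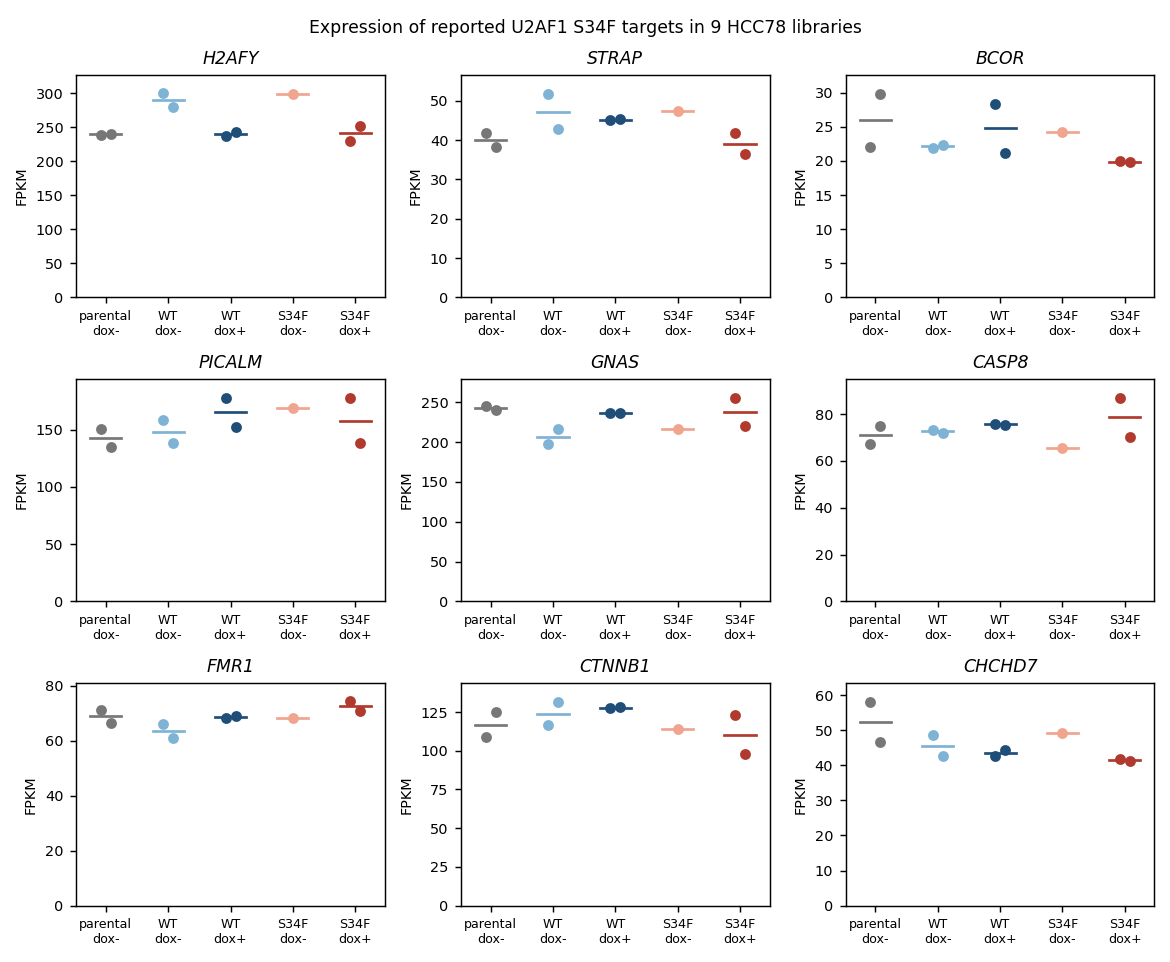
FPKM (vertical, from 0) of the 9 genes in each library (points), with the group mean as a line. H2AFY is higher in the 3 transduced dox- libraries, 280 to 300, than in the other 6, 230 to 252, a grouping that was not planned.

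BCOR was lower in S34F dox+, at 19.9 and 19.8 FPKM, than in WT dox+, at 28.4 and 21.2. The WT dox+ libraries stood further apart than the distance between the groups. The log2 fold change was -0.29 (SE 0.18, 95% interval -0.72 to 0.14, limma adjusted p = 0.808). For STRAP the S34F dox+ libraries stood at 41.7 and 36.4 and the WT dox+ libraries at 45.1 and 45.4. Its log2 fold change was -0.21 (SE 0.13, 95% interval -0.52 to 0.10, limma adjusted p = 0.809). CTNNB1 stood at 123 and 97.6 in S34F dox+ and at 127 and 128 in WT dox+. The fold change on the log2 scale was -0.22 (SE 0.14, 95% interval -0.54 to 0.11, limma adjusted p = 0.81). Each of the 3 intervals takes in 0, and each value moved with 1 library. BCOR was at -0.09 without WT dox+ replicate 1 and at -0.49 without WT dox+ replicate 2. STRAP was at -0.12 and CTNNB1 at -0.05 when S34F dox+ replicate 2 was left out, and CTNNB1 was at -0.39 when replicate 1 was.

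The other 6 genes had log2 fold changes from -0.07 to 0.08. In all, 5 of the 9 values were below 0, and with TPM in place of FPKM all 9 were, where the median of all genes was -0.07. PICALM was at 177 and 138 FPKM in S34F dox+ and at 178 and 152 in WT dox+, so its replicates differed more than its groups. GNAS was at 256 and 221 against 237 and 236, and CASP8 at 87.0 and 70.2 against 75.8 and 75.4. FMR1 was at 74.4 and 70.9 against 68.2 and 69.1, with a log2 fold change of 0.08 (SE 0.10, 95% interval -0.16 to 0.32). CHCHD7 was at 41.8 and 41.2 against 42.7 and 44.2. Libraries of these groups did not overlap for BCOR, STRAP, CTNNB1 and CHCHD7, lower in S34F dox+, or for FMR1, higher there. How many of all genes split in this way was not counted.

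**Figure D5:**
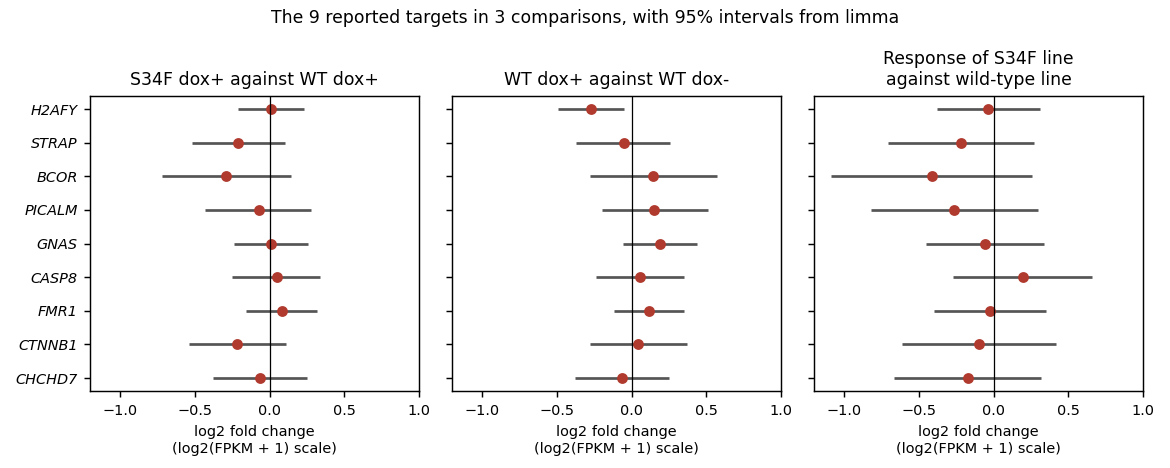
Log2 fold changes of the 9 genes on the log2(FPKM + 1) scale (points) with 95% intervals (lines) in 3 comparisons. All intervals include 0 except that of H2AFY in WT dox+ against WT dox-, from -0.49 to -0.05.

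Doxycycline in the wild-type line went with a lower level of H2AFY, which did not pass the adjusted threshold. H2AFY was at 237 and 242 FPKM in WT dox+ and at 300 and 280 in WT dox-. The log2 fold change was -0.27 (SE 0.09, adjusted p = 0.274 from limma). It was the 1 gene of the 9 with an unadjusted p under 0.05, where 5.59% of all genes were lower by that measure and 8.8% higher. The S34F dox- library stood at 298 and the S34F dox+ libraries at 230 and 252, and the parental libraries at 238 and 241. The 3 transduced dox- libraries were thus all above the other 6. Since the sources differ on the doxycycline status of the parental cells, it cannot be told from these values whether the level went with doxycycline alone, and the same holds for GNAS. GNAS had the opposite order, with 198 and 216 in WT dox-, 216 in S34F dox-, and 221 to 256 in the other 6. For both genes this grouping of libraries was not planned, and the share of all genes that split so was not counted. Over the 9 libraries Pearson's r between H2AFY and GNAS was -0.914, a description of these libraries. It was the most extreme of all pairs among the 9 genes, of which the next lowest was -0.592. None of the 9 genes was called, against 0.00659% of all genes in each direction.

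The doxycycline response of the S34F line was lower than that of the wild-type line in 8 of the 9 genes, beside 6931 of the 15179 genes tested. Without S34F dox+ replicate 2 it was lower in 5 of the 9. None was called, where 0.00659% of all genes were called higher and 0.0198% lower. None had an unadjusted p under 0.05, against 2.21% of all genes higher and 1.21% lower. The S34F dox- group is 1 library, whose spread was taken from the other groups. Differences in log2 response ran from -0.41 for BCOR (SE 0.29, 95% interval -1.09 to 0.26) to 0.20 for CASP8 (SE 0.20, 95% interval -0.27 to 0.66). The median was -0.10, against 0.03 for all genes. This comparison shares the dox+ libraries with the first.

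Levels of each gene across the 9 libraries were most alike those of 1 other gene among 10015, by Pearson's r: CYCS for H2AFY (0.979), HSPA4 for STRAP (0.979), FRMD8 for BCOR (0.873), RTF1 for PICALM (0.956), CKB for GNAS (0.977), SCFD1 for CASP8 (0.949), ARID4B for FMR1 (0.959), DGUOK for CTNNB1 (0.946) and the pseudogene HNRNPA1P7 for CHCHD7 (0.948). They were chosen as the highest of many and share libraries and depth.

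Genes around the 9 were counted from a pair of lists. Of 25 factors of 3′ splice site recognition and the U2 snRNP, none was called in any comparison. Between S34F dox+ and WT dox+, 10 were higher and 15 lower, from U2AF1 itself (log2 fold change -0.59, adjusted p = 0.531 from limma) to ZRSR1 (0.50, adjusted p = 0.941). In WT dox+ against WT dox-, 7 were higher and 18 lower, from PHF5A of SF3B (-0.55, adjusted p = 0.182) to U2AF1 (1.37, adjusted p = 0.0506). The difference of the responses had 7 higher and 18 lower, from U2AF1 (-0.64) to ZRSR2 (0.44). Of all 15179 genes tested, 6774, 6667 and 6931 were lower in these comparisons, in the same order. None of the 196 events of the 25 factors was changed. Of 36 tested paralogues and partners of the 9 genes, none was called either, with 17 higher and 19 lower between the dox+ groups, from GEMIN2 (-0.41) to the adenylyl cyclase ADCY6 (0.73). In WT dox+ against WT dox-, 15 were higher and 21 lower, from PCGF1 of the BCOR complex (-0.53) to ADCY6 (0.96). In the difference of the responses, 20 were higher and 16 lower, from GEMIN2 (-0.59) to PCGF1 (0.89).

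Partners did have changed events, 5 of 313 or 1.6%, near the 1.18% of all events. An exon of APC had a PSI of 0.36 with S34F and 0.08 with wild-type (Bayes factor 7.45). APC is part of the complex that marks β-catenin for destruction. An exon of FXR1, the paralogue of FMR1, had 0.55 and 0.42 (11.38), and one of JUP, the paralogue of CTNNB1, had 0.19 and 0.07 (123.99). A NAGNAG acceptor of CASP10, the paralogue of CASP8, had 0.62 and 0.19 (5.3). In a 3-isoform 5′ site event of the clathrin light chain CLTA, 1 isoform had 0.16 and 0.69 (7.09).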

How the data were processed

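RNA-seq of HCC78 was analysed in 9 libraries, and 2 iCLIP samples were not analysed here. The authors trimmed paired-end reads of total RNA, aligned them with STAR (2.3.0 in their processing notes) and ran RSEM 1.2.29 to obtain gene-level FPKM and TPM, in GRCh37. The deposited table holds no counts, so DESeq2, which the authors used, could not be applied. The read counts per event in the deposited MISO tables are supporting reads of each condition. PSI is a fraction that the authors estimated with MISO, and the Bayes factor is the ratio of their comparison. Differences in PSI were recomputed, and the authors' own differences were not used.

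limma 3.58.1 (R 4.3.3), with a trend, was run on log2(FPKM + 1) of genes averaging 1 FPKM or more, with 5 groups in 1 fit. The fit was tested on simulated data with shifts far larger than any change of the 9 genes. That test does not show whether changes of their size would be found. Where an event had more than 1 pair of PSI values, the pair with the highest Bayes factor stood for it. The 9 genes and the lists were chosen with earlier results of these data known. Named events are those with the largest Bayes factor or difference in each gene and all with a difference of at least 0.10, and named list genes have the largest change in each direction. Other events were chosen after their values were seen. Splice site sequences are not printed because no genome was used here. Which libraries entered the MISO comparison is not given in the sources used here. Across 9601 genes, the ratio of reads followed the ratio of FPKM between S34F dox+ and WT dox+ (Spearman's rho 0.558). Alternatives covered the pseudocount, filters, scaling, TPM, a replicate block, left-out libraries and the event thresholds.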

Additional observations from a re-analysis of the deposited data

How the results depend on the processing

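None of the 9 genes was called in any expression comparison under any alternative. Of 351 log2 fold changes recomputed, 325 kept their direction and 26 turned, 17 of these on leaving out 1 library. With TPM, the values of S34F dox+ against WT dox+ turned for H2AFY and GNAS (-0.11 each), CASP8 (-0.07) and FMR1 (-0.037), where the median of all genes was at -0.07. With median-ratio scaling H2AFY and GNAS turned to -0.02, and with quantile normalization GNAS turned to -0.014. In the difference of the responses, quantile normalization turned H2AFY (0.015) and FMR1 (0.004). Leaving out 1 library, the values of S34F dox+ against WT dox+ ran from -0.058 to 0.074 for H2AFY, -0.25 to 0.107 for PICALM, -0.099 to 0.114 for GNAS, -0.106 to 0.2 for CASP8, -0.494 to -0.086 for BCOR, -0.385 to -0.053 for CTNNB1 and -0.307 to -0.115 for STRAP. In WT dox+ against WT dox- they ran from -0.189 to 0.081 for STRAP, -0.06 to 0.348 for BCOR, -0.041 to 0.132 for CTNNB1 and -0.157 to 0.031 for CHCHD7. In the difference of the responses they ran from -0.1 to 0.031 for H2AFY, -0.163 to 0.05 for GNAS, -0.081 to 0.032 for FMR1 and -0.265 to 0.067 for CTNNB1. The S34F dox- library could not be left out, since that comparison needs it.

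The count of changed events was 0 of 99. It was 9 at a Bayes factor of at least 1, 23 with no Bayes factor and 1 at a difference of at least 0.05. It stayed at 0 with the other thresholds, read minimums and event filters, including the removal of events on the opposite strand, an alternative chosen after seeing the data.

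Replicate numbers did not pair the samples, with correlations of their deviations from -0.0756 to 0.0374. A replicate block left 0 of the 9 genes called in each comparison.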

Other observations

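Reads per event and FPKM gave different ratios of S34F to wild-type for CASP8 and, in the other direction, for BCOR. The median read ratio over the events of CASP8 was 0.545, which is 0.798 of 0.683. The 0.683 is the median over 9601 genes, each taken at its highest reads of an event, so the measures are not quite alike. The FPKM ratio of CASP8 was 1.04. For BCOR the read ratio was 1.05 of that median and the FPKM ratio 0.802. For H2AFY the read ratio was 1.01 of that median and the FPKM ratio 1.01, and for PICALM they were 1.13 and 0.956. Which libraries stand behind the read numbers was not tested.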
